A study of Citrus maxima with 12 samples.

Results

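Of 32863 gene identifiers measured in pomelo fruit, 36 had group means that moved in opposite directions with yellow spot disease in the cultivars Jinsha and Jinlan. In Jinsha, mean expression in diseased fruit was at least 2-fold that of control fruit, and in Jinlan the reverse held, with control fruit at least 2-fold above diseased fruit. The members were chosen by these group means, with 1 FPKM added to each mean before the ratio was taken. FPKM is an abundance in which the fragments of a gene are scaled by transcript length and by library size. Messenger RNA came from whole-tissue samples of fruit labelled as Jinsha control, Jinsha disease, Jinlan control and Jinlan disease, with 3 libraries in each group. The labels give neither the agent of the disease nor the fruit part, the age of the fruit or the severity of the spots. Replicates are labelled biosample1 to biosample3, and nothing says whether these are separate fruits or trees. The p-values then cover only the spread between these libraries, which may be technical. In such bulk samples, fewer cells of a type and less RNA per cell cannot be told apart.

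Pomelo (Citrus maxima) is one of the ancestral species of cultivated citrus. Plants meet pathogens with receptors at the cell surface and inside the cell, and signalling through kinases and hormones then changes the transcription of many genes, among them genes for phenylpropanoid and flavonoid synthesis and for antimicrobial proteins. Plant genes of such families often lie in tandem arrays, in which neighbouring copies have arisen by duplication. A gene whose transcript responds in opposite directions in 2 genotypes under the same conditions is a case of genotype-by-environment interaction. In these samples the cultivar cannot be told apart from fruit part, fruit age or severity of the disease, should these have differed between groups. No names or products are paired with the identifiers in the files. The functions of the 36 genes are therefore not stated, and neither tissue markers nor pathway lists could be looked up.

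All 36 members passed the filter of at least 1 FPKM in at least 3 libraries, which left 17120 genes for testing. In each library 16054 to 16456 genes were at 1 FPKM or more, and total FPKM was 550055 to 575107.

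The rise in Jinsha was the larger change for 31 of the 36 members. On the scale of log2(mean FPKM + 1), the change in Jinsha ran from 1.09 to 6.30 with a median of 2.46, and that in Jinlan from -3.30 to -1.03 with a median of -1.27. Over all tested genes the medians were -0.02 in Jinsha and 0.01 in Jinlan. A change of at least 3 on this scale was reached by 11 members in Jinsha and by 1 in Jinlan. Of all 32863 genes, 404 (1.23%) passed the threshold in Jinsha, 669 (2.04%) passed that in Jinlan and 36 (0.11%) passed both, which is 8.91% of the first list and 5.38% of the second. Just inside the threshold in Jinsha stood members with changes of 1.09 and 1.15, and just outside it were genes at 0.99 and 0.98 that met the condition in Jinlan. In Jinlan the members nearest the threshold were at -1.03 both, and the nearest genes outside were at -0.95 and -0.94. Within 0.1 of the Jinlan threshold lay 7 members on the inside and 10 genes on the outside, so membership in Jinlan often rested on a small difference.

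**Figure D1:**
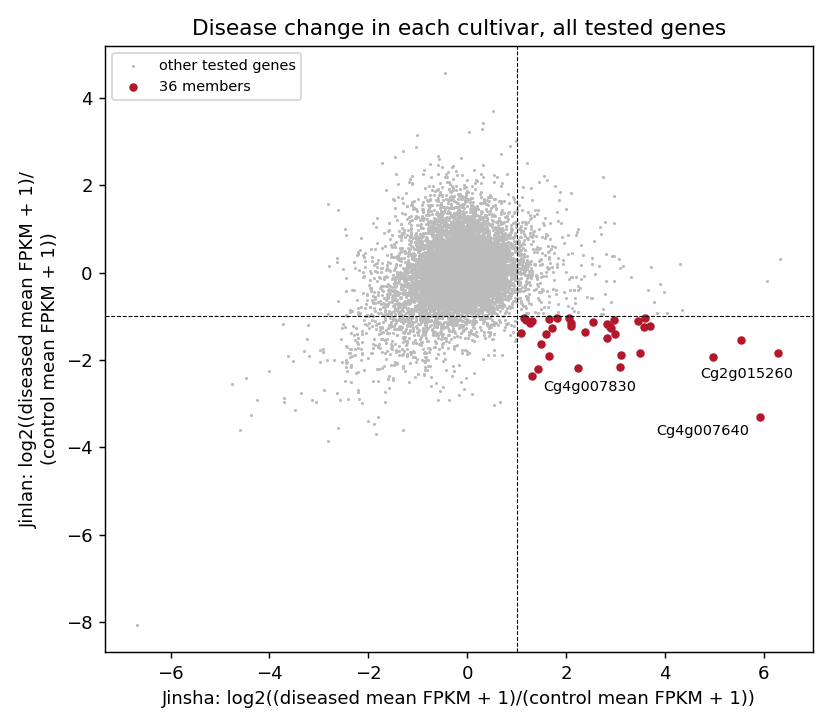
Change with disease in Jinsha (x axis) and Jinlan (y axis), each as log2 of the ratio of group means plus 1 FPKM, for 17120 tested genes (grey) and the 36 members (red). Dashed lines mark the thresholds of 1 and -1. Members reach 6.30 in Jinsha and -3.30 in Jinlan, and most lie close to the Jinlan threshold.

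Cg4g007640 had the lowest change in Jinlan and the second-highest in Jinsha. Its level was 0.278 and 0.392 FPKM in Jinsha control replicates 1 and 2 and was listed at 0 in replicate 3, against 68.2, 78.7 and 73.4 FPKM in diseased Jinsha fruit. In Jinlan it went from 32.3, 34.1 and 28.7 FPKM in control fruit to 1.38, 1.60 and 3.97 FPKM in diseased fruit. The libraries of control and diseased fruit did not overlap in either cultivar. The log2 changes of its group means were 5.93 in Jinsha and -3.30 in Jinlan. Diseased Jinsha fruit thus held 2.32 times the level of control Jinlan fruit, while control Jinsha fruit and diseased Jinlan fruit were both low.

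Cg2g015260 had the highest change of the members in Jinsha, 6.30 for the group means. It stood at 0.0673, 0.204 and 0.222 FPKM in control Jinsha fruit and at 143, 45.2 and 83.1 FPKM in diseased Jinsha fruit. In control Jinlan fruit the libraries held 8.32, 0.590 and 18.1 FPKM, and in diseased Jinlan fruit 2.02, 1.43 and 2.003 FPKM. Replicate 2 of the Jinlan controls was thus below every diseased Jinlan library. The change in Jinlan, -1.23 (SE 0.66) as a mean of log2(FPKM + 1), did not pass the test. It rested on single Jinlan control libraries: without replicate 2 it was -2.25 and passed, and without replicate 3 it was -0.46 and did not.

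Cg4g007830 had the second-lowest change in Jinlan and was among the most abundant members. It was at 72.5, 72.5 and 73.6 FPKM in control and 166, 186 and 198 FPKM in diseased Jinsha fruit. In Jinlan the level fell from 211, 203 and 176 FPKM to 33.6, 35.8 and 42.4 FPKM. Here control Jinlan fruit was the highest group, with 197 ± 18.6 FPKM against 184 ± 16.0 FPKM in diseased Jinsha fruit (SD, n = 3 each), a difference within the spread of the libraries.

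Cg6g009400 was the most abundant member. Control Jinsha libraries held 190, 192 and 173 FPKM and diseased ones 1013, 1108 and 1139 FPKM. In Jinlan the values were 527, 538 and 477 FPKM in control and 231, 240 and 230 FPKM in diseased fruit. The 4 groups did not overlap, in the order diseased Jinsha, control Jinlan, diseased Jinlan and control Jinsha.

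**Figure D2:**
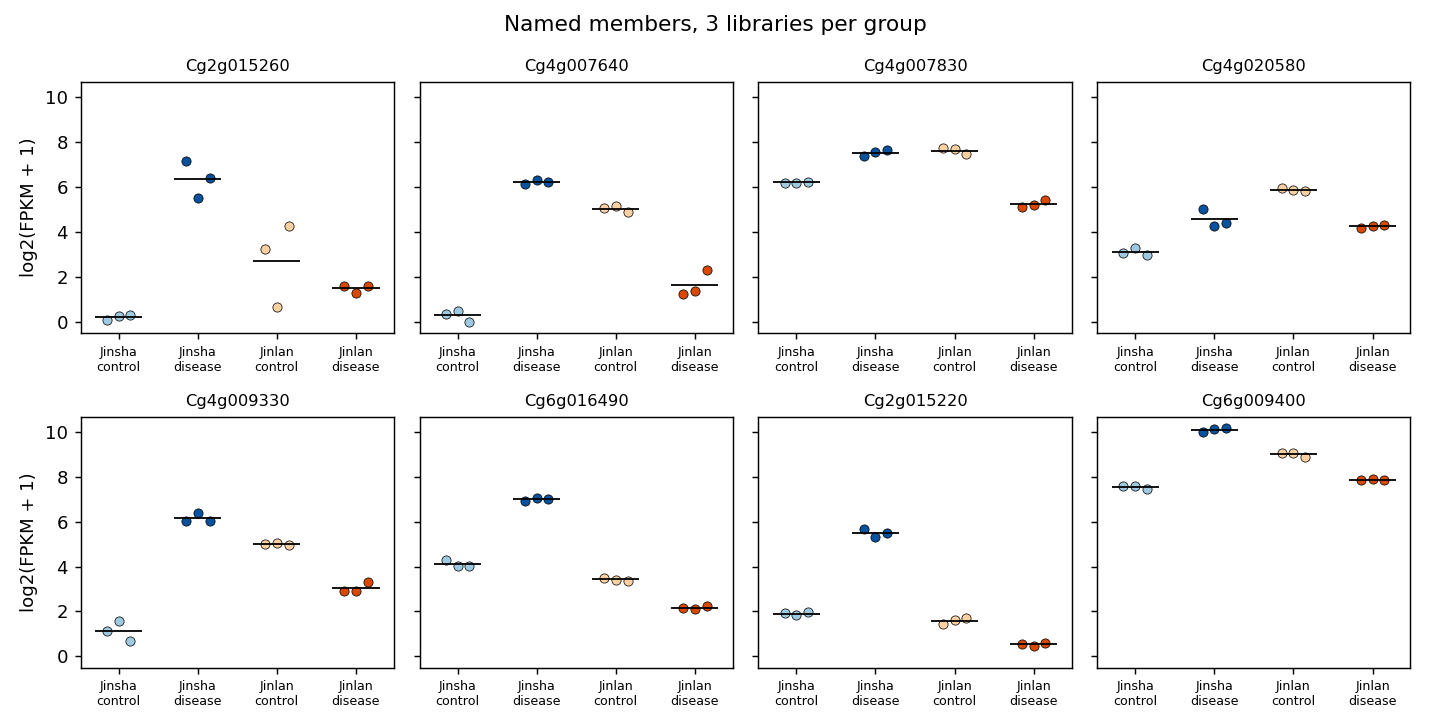
Level of 8 named members in each library, as log2(FPKM + 1), by group (points are libraries, bars are means of 3 libraries). In every panel diseased Jinsha lies above control Jinsha. Diseased Jinlan lies below control Jinlan in all libraries except for Cg2g015260, where Jinlan control replicate 2 (0.590 FPKM) lies below the diseased libraries.

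By limma with an adjusted p below 0.05, 35 of the 36 members were called higher in diseased Jinsha fruit, where 27.3% of all tested genes were, and 34 were called lower in diseased Jinlan fruit, where 30.3% were. The interaction (change in Jinlan less that in Jinsha) was called for 35 members, beside 27.2% of all tested genes called in that direction. The libraries of control and diseased fruit did not overlap, in the direction of the rule, for 35 members in Jinsha (30.6% of tested genes) and for 34 in Jinlan (33.1%). Both held for 34 members and for 9.43% of tested genes. The rule used these same contrasts, so the counts describe the members and support nothing.

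NewGene_2404 was the member called in neither disease comparison, and is named here after its values were seen. It was listed at 0 in 9 of 12 libraries, and its values were 9.81 and 1.49 FPKM in Jinsha disease replicates 1 and 3 and 10.6 FPKM in Jinlan control replicate 3. Its membership rested on these single libraries. Another member, the only one with the prefix CgUng, was at 15.8 FPKM in Jinlan control replicate 2 and at 2.99 and 2.49 FPKM in replicates 1 and 3, above 0.723 to 0.911 FPKM in diseased Jinlan fruit. Its change in Jinlan of -1.77, as a mean of log2(FPKM + 1), was -1.05 without Jinlan control replicate 2 and still passed the test.

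The rule fixes how far the cultivars diverge in total, but not whether they diverge in control or in diseased fruit. For each member the control difference (Jinlan minus Jinsha) and the diseased difference (Jinsha minus Jinlan), both as log2(mean FPKM + 1), had to sum to at least 2. The diseased difference was the larger for 30 members and the control difference for 6. The diseased difference had a median of 2.63 (range 0.34 to 5.11) and the control difference one of 1.30 (range -0.69 to 4.74). Both differences reached 2-fold in 18 members, the diseased one alone in 16 and the control one alone in 2. Over all genes, 1.07% reached 2-fold in control fruit with Jinlan higher and 1.94% did so in diseased fruit with Jinsha higher.

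Cg4g009330 was one of the members in which the order of the cultivars was exchanged. In control fruit it was at 1.18, 2.01 and 0.628 FPKM in Jinsha and at 31.5, 32.2 and 29.7 FPKM in Jinlan. In diseased fruit it was at 65.2, 82.3 and 65.0 FPKM in Jinsha and 6.59, 6.65 and 8.98 FPKM in Jinlan. Jinlan was 24.5-fold higher in control fruit and Jinsha 9.56-fold higher in diseased fruit, with no overlap of libraries in either state.

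Cg4g020580 stood at the other end, with a difference between the cultivars called in control fruit alone. The control libraries held 7.33, 8.62 and 6.83 FPKM in Jinsha and 61.6, 57.7 and 55.1 FPKM in Jinlan, a 7.66-fold difference. In diseased fruit the values were 31.7, 18.3 and 19.7 FPKM in Jinsha and 17.2, 18.3 and 18.9 FPKM in Jinlan, which overlapped. The levels of the 2 cultivars thus met in diseased fruit.

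Cg6g016490 and Cg2g015220 showed the reverse, with a small gap in control fruit and a wide gap in diseased fruit. Cg6g016490 was at 18.5, 15.3 and 15.4 FPKM in control Jinsha and 10.4, 9.58 and 9.28 FPKM in control Jinlan fruit, and at 122, 132 and 130 FPKM in diseased Jinsha and 3.50, 3.30 and 3.77 FPKM in diseased Jinlan fruit. Cg2g015220 was at 2.78, 2.59 and 2.91 FPKM in control Jinsha and 1.68, 2.07 and 2.23 FPKM in control Jinlan fruit. In diseased fruit it was at 50.3, 39.1 and 43.7 FPKM in Jinsha and 0.455, 0.363 and 0.534 FPKM in Jinlan. Jinsha was higher in both states for these members, by 1.68-fold and 1.38-fold in control fruit and by 36.2-fold and 98.4-fold in diseased fruit. They were 2 of only 4 members whose control level was higher in Jinsha. The 98.4-fold ratio of Cg2g015220 rests on a diseased Jinlan mean of 0.451 FPKM, with nothing added. On log2(mean FPKM + 1) the diseased differences were 4.83 for Cg6g016490 and 4.97 for Cg2g015220.

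Diseased Jinsha was the group with the highest mean in 33 members and control Jinlan in 3, all 3 with the prefix Cg4g. The lowest mean was found in diseased Jinlan fruit for 20 members and in control Jinsha fruit for 15, and 1 member was listed at 0 in both. The rule leaves only diseased Jinsha and control Jinlan as possible highest groups, and only the other groups as lowest. No share of all genes stands beside the counts given here, so they only describe the members. Diseased Jinsha fruit exceeded control Jinlan fruit at least 2-fold in 23 members. The low groups lay closer together on log2(mean FPKM + 1): control Jinsha and diseased Jinlan fruit were within 2-fold of each other in 24 members. The added 1 FPKM narrows such ratios at low levels. In each of these groups 8 members had a mean below 1 FPKM. The medians of the members' group means were 5.45 FPKM in control Jinsha, 55.9 in diseased Jinsha, 12.04 in control Jinlan and 3.62 in diseased Jinlan fruit, where the medians of all tested genes were 12.6, 11.8, 11.2 and 11.5 FPKM.

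**Figure D3:**
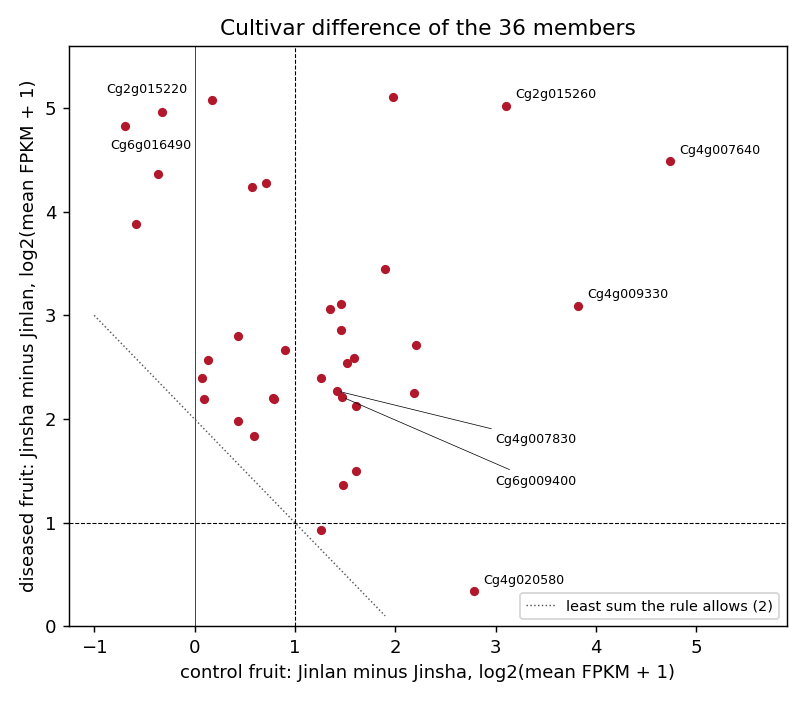
Difference between the cultivars for each of the 36 members in control fruit (x axis, Jinlan minus Jinsha) and diseased fruit (y axis, Jinsha minus Jinlan), both on log2(mean FPKM + 1). Dashed lines mark 2-fold and the dotted line the least sum the rule allows. The diseased difference is the larger in 30 members, and Cg4g020580 is far to the right of the diagonal at 0.34 on the y axis.

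In the limma fit, control fruit differed between the cultivars for 31 members. Jinlan was called higher for 27 of these (21.2% of tested genes) and lower for 4 (36.8%). In diseased fruit 34 members were called lower in Jinlan (38.7%) and 0 were called higher (28.6%), nor was any at an unadjusted p below 0.05, since the log2 difference was negative in all 36. Libraries of the cultivars did not overlap for 27 members with control Jinlan higher (23.6% of tested genes), 4 with control Jinsha higher (39.5%), 34 with diseased Jinsha higher (40.9%) and 0 with diseased Jinlan higher (30.2%). The sum that the rule fixes bears on these counts too, so they are given without weight.

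The rule set no limit on the level averaged over control and diseased fruit, a contrast that is orthogonal to both disease changes. This average sets the control difference against the diseased difference, so it restates which of them was larger. Over all genes, 2-fold differences with Jinlan higher in control fruit were rarer (1.07%) than those with Jinsha higher in diseased fruit (1.94%). The calls for the averaged level therefore describe the members and are no separate support. On this average, 29 of the 36 members were lower in Jinlan than in Jinsha and 3 were higher, by limma with an adjusted p below 0.05. Of all tested genes 42.8% were called lower and 25.4% higher, a balance that moved to 33.7% and 31.7% after median-ratio scaling, where 27 members were lower and 3 higher. The members' log2 differences had a median of -0.73 (quartiles -1.20 and -0.34), beside -0.09 for all tested genes. The lowest values were -2.76 (SE 0.05, limma adjusted p = 2.35e-12) for Cg6g016490 and -2.65 (SE 0.07, limma adjusted p = 2.58e-11) for Cg2g015220. The highest was 1.24 (SE 0.11, limma adjusted p = 5.42e-07) for Cg4g020580. Cg4g009330 followed at 0.38 (SE 0.13, limma adjusted p = 0.017), and with a pseudocount of 5 in place of 1 it was at -0.038 and was not called. For Cg4g007640 the cultivars were not told apart on average (0.09, SE 0.15, limma adjusted p = 0.616) with a pseudocount of 1, and the call depended on that setting. With a pseudocount of 0.1 it was called higher in Jinlan (0.91, limma adjusted p = 0.0324), and with 5 it was called lower (-0.31, limma adjusted p = 0.00258). Among the 32 called members, 25 held their call and direction in every one of 19 alternative fits that tested them and 7 lost the call in at least 1. Of those 7, Cg2g015260 (-1.19, SE 0.47, limma adjusted p = 0.0384) and 2 others lost it in at least 9 alternatives. Without Jinlan control replicate 2 the difference for Cg2g015260 was -0.68.

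**Figure D4:**
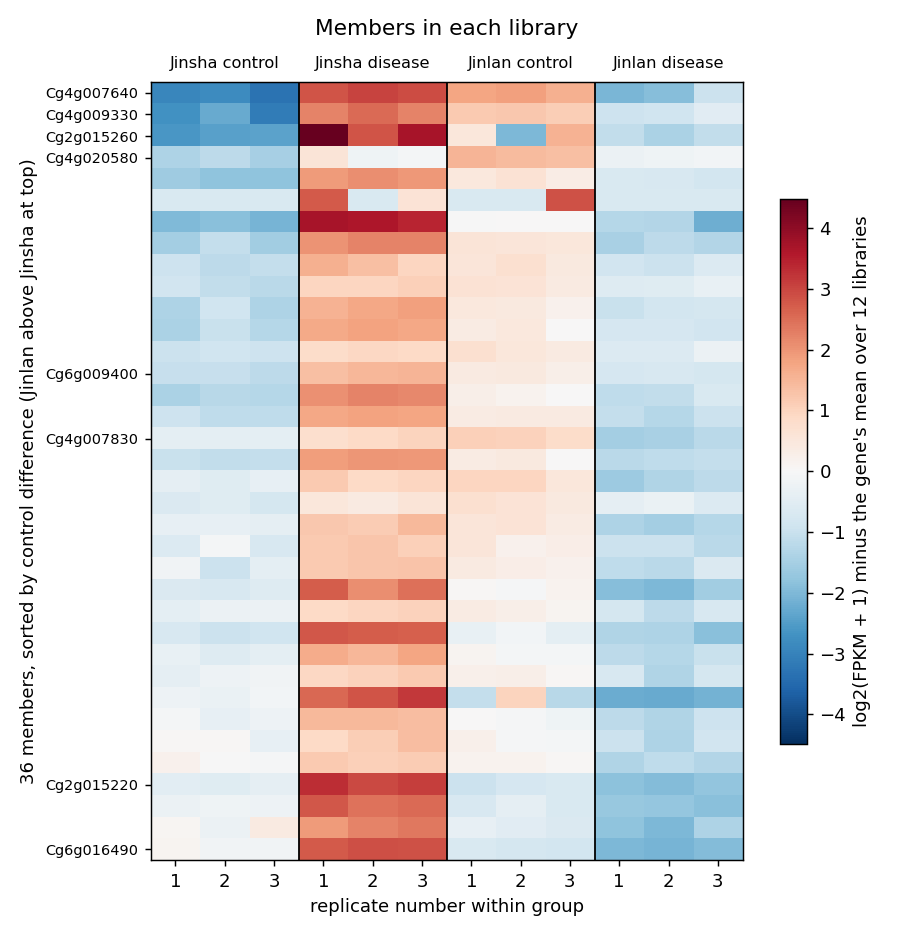
The 36 members (rows, sorted by control difference with Jinlan above Jinsha at the top) in 12 libraries (columns), as log2(FPKM + 1) minus the gene's mean over all libraries. Diseased Jinsha is the reddest block. Control Jinlan is mostly red in the upper rows, such as Cg4g007640, and blue for the lowest rows, such as Cg6g016490 at 9.28 to 10.4 FPKM against 15.3 to 18.5 FPKM in control Jinsha fruit.

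Some of the members had neighbouring identifier numbers. The annotation behind the identifiers was not used here, so the following concerns their numbering, not measured distances on a chromosome. Within 60 numbers of another member, which is 6 steps of 10, lay 6 of the 33 members with a numbered prefix (18.2%), beside 226 of 15573 other tested genes of this kind (1.45%) that lay as near to a member. This distance was chosen after the members were seen and equals the span of the longest stretch. The 6 members came only from that stretch and from the Cg8g pair, both described below, so they are not 6 separate cases. Among prefixes, Cg4g held 8 members (22.2% of members and 8.60% of tested genes), Cg2g 7 (19.4% and 15.9%) and Cg7g 0 (0% and 8.66%).

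The longest such stretch ran from Cg2g015220 to the second identifier after Cg2g015260 and held 4 members among 7 identifiers. Its last 2 members had Jinsha means of 15.3 ± 0.277 and 5.13 ± 0.270 FPKM in control and 115 ± 14.4 and 52.0 ± 11.3 FPKM in diseased fruit, in the order of their numbers (SD, n = 3). In Jinlan they had means of 11.6 ± 1.44 and 9.05 ± 0.740 FPKM in control and 4.64 ± 0.341 and 1.74 ± 0.471 FPKM in diseased fruit. None of the libraries of control and diseased fruit overlapped for these 2 genes.

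The 3 identifiers of the stretch that are not members did not all behave alike. The one directly after Cg2g015220 had means of 4.70 ± 1.04 FPKM in control and 89.4 ± 3.24 FPKM in diseased Jinsha fruit (SD, n = 3). In Jinlan the means were 6.06 ± 0.512 and 4.19 ± 0.362 FPKM, and its log2 change of -0.44 was short of the threshold. The next was listed at 0 in all 12 libraries. The one directly before Cg2g015260 rose in Jinsha from 0.243 ± 0.0646 to 24.5 ± 4.44 FPKM. In control Jinlan fruit it was at 5.87, 0.426 and 3.42 FPKM, with replicate 2 low as for Cg2g015260, and in diseased Jinlan fruit it was at 1.497, 1.10 and 1.45 FPKM. All 6 measured genes of the stretch thus rose in Jinsha, by log2 changes of 2.83 to 6.30. For the members among them the rule set this rise, and both ends of that range are members' values. The measured genes that are not members rose by 3.99 and 4.36. Of all genes, 1.23% rose at least 2-fold in Jinsha.

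The 2 identifiers before the stretch were listed at 0 in all libraries and show nothing on that side. The one after it was at 18.5 ± 0.774 FPKM in control and 13.3 ± 1.32 FPKM in diseased Jinsha fruit and at 11.8 ± 0.324 and 10.8 ± 0.347 FPKM in Jinlan (SD, n = 3), with log2 changes of -0.44 and -0.11. The next had log2 changes of 0.44 in Jinsha and -0.27 in Jinlan, in the members' directions but short of the 2-fold threshold in both. Both were called by limma (adjusted p = 6.80e-06 and 0.000415), as were 27.3% and 30.3% of all tested genes in those directions. Its diseased Jinsha libraries, at 25.9 to 27.5 FPKM, lay above all its other libraries, which reached at most 23.3 FPKM. Whether the genes of the stretch are near-identical copies whose reads could be shared between them was not tested.

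**Figure D5:**
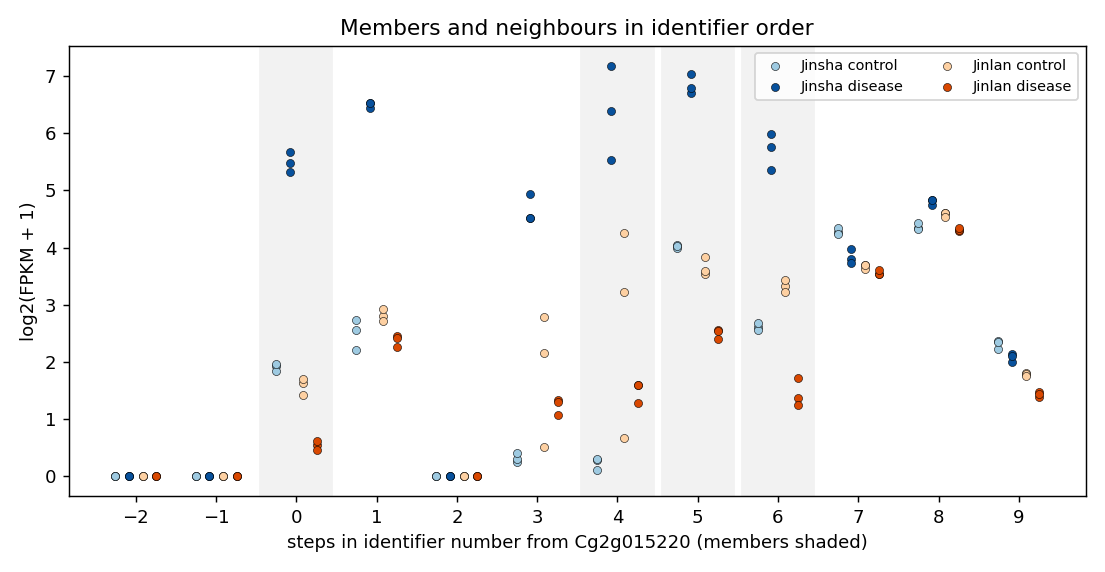
Level of 12 consecutive identifiers in each library, as log2(FPKM + 1), by steps in identifier number from Cg2g015220, with the 4 members shaded. Diseased Jinsha (dark blue) stands above all other libraries in the 6 measured genes from step 0 to step 6. At step 7 it does not, at 13.3 FPKM against 18.5 FPKM in control Jinsha fruit. One step further, diseased Jinsha is again above all others, by less, at 25.9 to 27.5 FPKM against at most 23.3 FPKM.

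A second pair of members had consecutive identifiers with the prefix Cg8g and nearly the same levels. In Jinsha the first was at 0.423 FPKM in control replicate 2 and listed at 0 in the other two, and the second was at 0.329 and 0.103 FPKM in control replicates 2 and 3 and listed at 0 in replicate 1. In diseased Jinsha fruit they were at 7.64 ± 0.789 and 7.99 ± 0.274 FPKM. In Jinlan the first went from 2.44 ± 0.352 to 0.439 ± 0.110 FPKM and the second from 2.27 ± 0.506 to 0.545 ± 0.0609 FPKM (SD, n = 3). Whether they share reads was not tested. The first tested identifier after the pair, not a member, had log2 changes of 1.09 in Jinsha and -0.65 in Jinlan, short of the threshold in Jinlan alone. The next tested ones changed by -0.14 and -0.72 and by 0.10 and 0.31. The nearest tested one before the pair changed by -0.26 and 0.60.

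Summed over the 36 members, expression was 649 ± 15.1 FPKM in control and 3349 ± 72.9 FPKM in diseased Jinsha fruit, and 1458 ± 90.1 FPKM in control and 543 ± 19.0 FPKM in diseased Jinlan fruit (SD, n = 3). As a share of the total FPKM of a library, the members took 0.114 ± 0.00283% and 0.595 ± 0.0164% in Jinsha and 0.255 ± 0.0134% and 0.0967 ± 0.00334% in Jinlan. Cg6g009400 alone held between 27.3% and 45.4% of the sum. Without it the sums were 465 ± 8.0 and 2263 ± 60.1 FPKM in Jinsha and 944 ± 58.4 and 310 ± 23.3 FPKM in Jinlan. The direction of these sums within each cultivar is set by the choice of the members.

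Jinlan control replicate 3 held the lowest value of the 3 Jinlan control libraries for 27 of the 36 members, beside 42.9% of all tested genes. Its log2(FPKM + 1) lay below the mean of replicates 1 and 2 by a median of -0.18 for the members and -0.03 for all tested genes. Its part in the falls in Jinlan was not tested. Without it 34 genes passed the rule, 33 of them members, and the members' median change in Jinlan, as a mean of log2(FPKM + 1), went from -1.249 over 36 to -1.321 over the 35 then tested.

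The rule was then applied with one replicate number left out of every group, and the chosen genes were read in the 4 libraries that had played no part in the choice. Without replicates 1, 37 genes were chosen, and all 37 rose in Jinsha and fell in Jinlan between the left-out libraries, 26 of them by at least 2-fold in both. Without replicates 2, 35 were chosen, of which 30 had both directions and 27 passed 2-fold in both. Without replicates 3, 42 were chosen, of which 40 had both directions and 23 passed 2-fold in both. The medians in the left-out libraries were 2.003, 2.52 and 2.43 in Jinsha and -1.43, -1.31 and -1.05 in Jinlan, on log2(FPKM + 1). Single libraries alone put 48, 48 and 34 genes of the whole table past both thresholds. Of the chosen genes, 31, 30 and 34 were members. Genes of the whole table with both directions were not counted, so the direction counts stand without a background. Replicates may be technical, and the left-out libraries may then not be separate samples.

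The opposite course, at least 2-fold lower in diseased Jinsha and at least 2-fold higher in diseased Jinlan fruit, was taken by 59 genes. Their median changes were -1.21 in Jinsha and 1.47 in Jinlan. On the level averaged over control and diseased fruit, 39 of them were called higher (25.4% of all tested genes) and 6 lower (42.8%) in Jinlan by limma, with a median log2 difference of 0.47. After median-ratio scaling 41 were higher (31.7%) and 5 lower (33.7%). Jinlan was at least 2-fold higher in diseased fruit for 54 of the 59 genes (3.62% of all genes), and Jinsha at least 2-fold higher in control fruit for 24 (1.58%). The rule bears on these last counts, since it fixes the least sum of both differences. The averaged level restates which of these differences was larger, so its calls describe the genes and are no separate support.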

How the data were processed

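The deposited values are FPKM, normalized by the authors for transcript length and mapped fragments, in a single table. The labels name a Qiagen kit for RNA and a SMARTER kit for the libraries. How reads were aligned and quantified, and on which genome build, is not given in the sources used here. No counts were given and low values showed no steps of whole reads, so depth is unknown and no counting interval is given. Libraries were grouped by cultivar and treatment in the labels.

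The members and all lists were chosen with earlier results of these data known. Members were found on group means as (mean + 1) ratios of at least 2-fold in opposite directions. For tests, log2(FPKM + 1) of genes that reached 1 FPKM in 3 or more libraries was fitted with 4 group means in limma 3.58.1 under R 4.3.3 (moderated variances with a trend on the mean) over all 12 libraries, with Benjamini-Hochberg adjustment over all 17120 genes. Adding 1 FPKM shrinks the changes of low genes. The fit was run on simulated data with independent values and few changed genes, unlike these data. That run checks the code and does not bear on the calls given here. Without names (0 identifiers matched), the planned lists by function could not be run, and 2 members were named for each of 5 criteria: the highest change in Jinsha, the lowest in Jinlan, the highest and the lowest averaged cultivar difference, and the highest mean. No 2 libraries shared more than 0.00479% of nonzero values. Alternatives were other pseudocounts, filters and scalings, a replicate block and leaving out each library. Figures used matplotlib 3.10.9.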

Additional observations from a re-analysis of the deposited data

Results flagged for a closer look

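The disease effect differed between the cultivars, by the interaction term of the limma fit, for 35 of the 36 members and for all 8 named members. The rule that chose the members sets the direction of this difference and a least size of about 2 on the log2 scale, and it used the same libraries, so the difference adds no support. The Jinlan change minus the Jinsha change, on log2(FPKM + 1), was -9.32 for Cg4g007640, -7.38 for Cg2g015260, -6.97 for Cg4g009330 and -4.63 for Cg2g015220. It was -4.14 for Cg6g016490, -3.69 for Cg4g007830, -3.68 for Cg6g009400 and -3.09 for Cg4g020580.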

How the results depend on the processing

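The number of genes past the rule depended on the pseudocount, with 84 genes at 0.1, among them all 36 members, and 15 at 5, all of them members. Median-ratio scaling gave 37 genes and quantile normalization 40, and the number lay between 33 and 40 when 1 library was left out. The members called were 34 to 36 in the Jinsha and 33 to 35 in the Jinlan comparison, 34 to 36 for the interaction, and 24 to 30 lower and 2 to 4 higher in Jinlan for the averaged level, over all alternatives. For named members the averaged cultivar difference changed sign for Cg4g007640, to -0.31 with a pseudocount of 5, where it passed the test, and to -0.076 without Jinlan disease replicate 3 (up to 0.19 without another library), and for Cg4g009330, to -0.038 with a pseudocount of 5. With a pseudocount of 0.1 the value for Cg4g007640 was 0.91 and passed the test. The cause was not tested.

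With the replicate number as a block, 35 members were called higher in diseased Jinsha, 34 lower in diseased Jinlan and 35 for the interaction, and 28 were lower and 3 higher in Jinlan on average. The numbers did not pair the libraries: deviations from the group means correlated at -0.17 to 0.04 between same-numbered libraries, with 0 of 18 pairs above 0.1. Between differently numbered libraries the correlations ran from -0.10 to 0.18, with 6 of 36 pairs above 0.1. A pairing across numbers was not tested. Depth is unknown, so no counting error can be given for low values, such as those of control Jinsha fruit.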
